A study of Drosophila melanogaster with 3 samples.

Results

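Weak ChIP-seq peaks of the transcription factor HLH54F whose summits lay in coding sequence, away from every transcription start site (TSS), numbered 1977. They were 10.6% of the 18639 peaks of the pooled list that overlapped no optimal peak (95% Wilson interval 10.2 to 11.1%), out of 23689 pooled peaks in all. The pooled list was deposited as peaks together with background, so a weak peak in it need not be a binding site. A peak was a member when it overlapped none of the 4246 optimal peaks, which the authors kept with the irreproducible discovery rate procedure as ranking alike across replicates, and when its summit lay inside an annotated coding exon (CDS) and over 500 bp from the start of every annotated transcript. They are called weak coding peaks here, and distal coding sequence means the coding bases over 500 bp from every start site. Location, and absence from the optimal list, chose the peaks. The optimal list holds the pooled peaks of highest signal, so the low signal of the weak coding peaks is part of their definition and is given as a description.

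The embryos were whole Drosophila melanogaster, males and females pooled, aged 0 to 24 h, of a transgenic line that carried HLH54F with green fluorescent protein (GFP) at its C terminus. All 3 biological replicates belonged to this 1 group, and no second genotype, age or treatment was compared. The labels' description names an antibody against GFP, while their antibody field names HLH54F. Each replicate had a relaxed peak list of its own (30000, 30000 and 24914 peaks in replicates 1, 2 and 3), each called against 1 control file, and the pooled list was called on the reads of all 3. The depth of each library is unknown here, since no read totals were used. The intervals given for shares count peaks as if independent, which they are not. Whole embryos mix every tissue, so signal in a few cells and weak signal in many cells cannot be told apart.

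HLH54F is a basic helix-loop-helix (bHLH) factor of the caudal visceral mesoderm, the embryonic cells that migrate forward along the gut and found its longitudinal muscles. Proteins of the bHLH family bind as dimers to the E-box, the 6-base sequence CANNTG. Regulatory DNA in flies lies mostly in promoters, introns and intergenic sequence, but coding exons can also hold enhancers. Coding exons are also transcribed, more GC-rich than introns, and under constraint for the protein they encode.

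The sequence around the summit is shown for 5 of the 10 weak coding peaks of highest signal that were found in all 3 replicates. It is 5′ to 3′ on the coding strand, from the release 6 genome (RefSeq), which has the coordinates of dm6, within 100 bp of the summit and cut where the coding exon ends. Capitals mark CANNTG. CG31259 held the strongest peak, Abl the most GC-rich sequence of the 5 and Naprt the most GC-poor. GstO3 held CAGCTG, an E-box class described below, and InR held a run of CAG.
CG31259, chr3R:8524421-8524573, plus strand: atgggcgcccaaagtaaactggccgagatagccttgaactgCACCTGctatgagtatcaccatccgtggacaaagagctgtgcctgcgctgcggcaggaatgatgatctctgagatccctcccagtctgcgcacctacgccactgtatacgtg
Abl, chr3L:16646856-16647056, minus strand: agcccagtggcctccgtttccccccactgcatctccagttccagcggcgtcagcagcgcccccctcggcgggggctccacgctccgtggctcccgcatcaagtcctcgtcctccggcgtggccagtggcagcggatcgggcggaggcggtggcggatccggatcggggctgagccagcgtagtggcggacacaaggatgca
Naprt, chr2L:4195737-4195904, minus strand: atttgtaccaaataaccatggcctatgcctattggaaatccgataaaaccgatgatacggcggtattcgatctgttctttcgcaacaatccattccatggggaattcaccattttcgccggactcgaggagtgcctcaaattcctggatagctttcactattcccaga
GstO3, chr3L:8519528-8519728, plus strand: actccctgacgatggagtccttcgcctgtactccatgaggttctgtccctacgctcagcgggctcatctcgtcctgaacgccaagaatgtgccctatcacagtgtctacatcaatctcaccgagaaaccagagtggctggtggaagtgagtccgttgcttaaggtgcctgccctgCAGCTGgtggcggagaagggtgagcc
InR, chr3R:21580257-21580457, minus strand: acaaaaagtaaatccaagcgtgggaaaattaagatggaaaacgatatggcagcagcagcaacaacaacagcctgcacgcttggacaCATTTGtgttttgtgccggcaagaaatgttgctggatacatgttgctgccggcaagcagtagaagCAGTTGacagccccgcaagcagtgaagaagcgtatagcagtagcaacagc
The CG31259 sequence is the whole first coding exon of the gene (153 bp) and holds 1 E-box, of the class CACCTG. The 201 bp of Abl were 71.1% GC and held no E-box, and the 168 bp of Naprt were 44.6% GC and held none either. InR held 2 E-boxes, of the classes CAAATG and CAACTG, read on the strand opposite to the printed one.

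Of the 15 strongest weak coding peaks found in all 3 replicates, 8 lay in the first coding exon of their gene, and the genes were of unlike function. First coding exons held 14.4% of all weak coding peaks and 8.72% of distal coding bases. CG31259, a gene named only by its annotation number, held the strongest, with a pooled signal of 87.4 (3R, 8524288 to 8524707). It ranked 5152, 7897 and 3276 by signal in replicates 1, 2 and 3, and its summit was 554 bp from the TSS. A rank here counts from 1 at the strongest peak of a list, and the signal is the authors' value per peak over the control, on a scale that the sources do not state. Orp8, which encodes an oxysterol-binding-related protein, came second (3R, 20310072 to 20310491) at a signal of 83.2, ranking 4965, 9572 and 3849. The peak in Mf, which encodes the muscle thick-filament protein myofilin, had a signal of 76.7 (3R, 15178253 to 15178672) and ranks of 5349, 5528 and 8181. Abl encodes a non-receptor tyrosine kinase. Its first coding exon held a peak of 76.3 (3L, 16646746 to 16647165), with ranks of 4037, 6150 and 16025, so replicate 3 stood well below the others. Naprt, an enzyme of NAD synthesis, held a peak of 71.0 in coding exon 2 of 12 (2L, 4195627 to 4196046). Its ranks were 6429, 6707 and 7887, with the smallest standard deviation (SD) of rank among these 15, 774. GstO3, an omega-class glutathione transferase, had uneven ranks, 8346, 4696 and 20641, at a signal of 70.5 (3L, 8519418 to 8519837).

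InR, the insulin receptor, held a peak of 69.8 in the first of its 10 coding exons (3R, 21580147 to 21580566). Its summit was 9834 bp from the nearest TSS, the farthest among the 15 strongest found in all 3 replicates, and it ranked 4413, 11384 and 7865. Myd88, the adaptor of Toll receptors, held a peak of 74.0 in its first coding exon (2R, 9307363 to 9307782), with ranks of 9404, 4841 and 8279. Ubr1, a ubiquitin ligase of the N-degron pathway, held one of 75.6 (X, 16967402 to 16967821), with ranks of 5269, 9974 and 6050. The remaining members of the 15 lay in cg, nahoda, CG11777, tral, PNUTS and Usp1. Over all 15 the signal ran between 63.7 and 87.4, and the single ranks between 3276 and 22456.

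Strong pooled signal did not always mean a place in every replicate. The peaks named above were chosen as the strongest found in every replicate. The 5 strongest of the rest were in shg, PNUTS (a second peak), l(3)mbn, corto and tow, with signals between 62.5 and 79.6. By that choice, any of these 5 above 63.7, the lowest signal of the peaks named above, had to be missing from a replicate. Which replicate lacked them was not fixed by the choice. All but tow were missing from replicate 3. The peak in the first coding exon of shg, which encodes E-cadherin, had a signal of 79.6 (2R, 21056153 to 21056572), ranked 3817 and 6703 in replicates 1 and 2, and was in no peak of replicate 3. The PNUTS peak 549 bp from the TSS ranked 2279 and 4196 in replicates 1 and 2, and 2279 was the best single rank among the 20. The l(3)mbn peak ranked 11881 and 2428 in the same replicates.

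**Figure D1:**
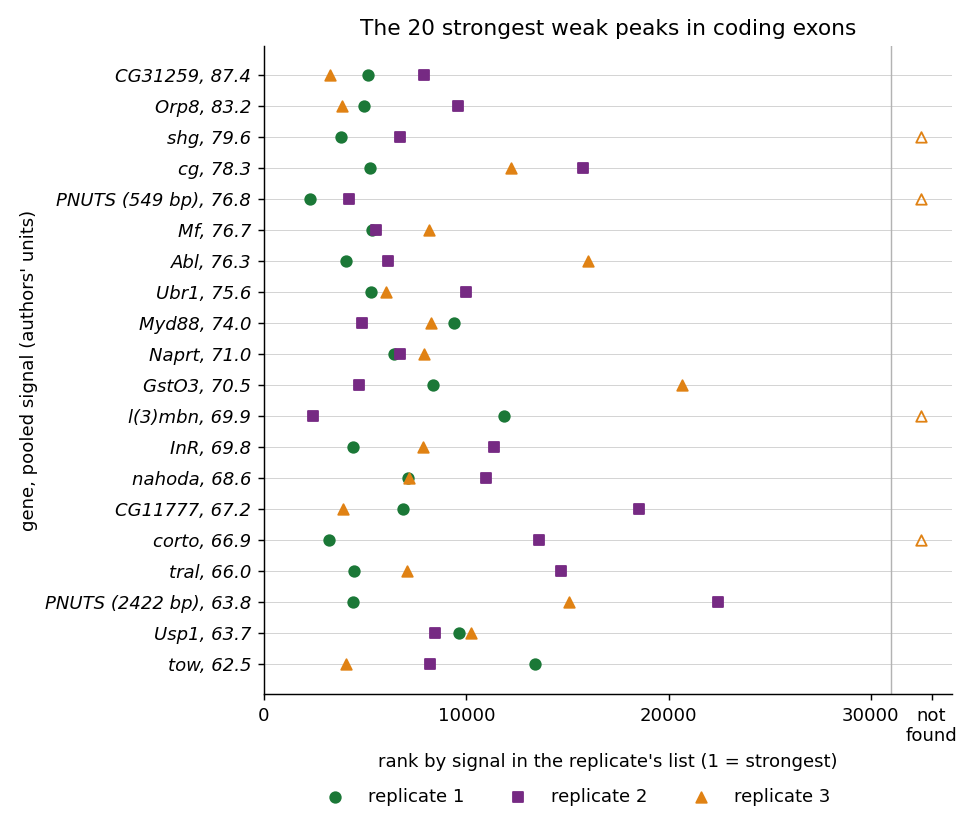
Rank of the 20 strongest weak coding peaks in each replicate's own list (x axis, 1 is the strongest peak), with genes down the y axis ordered by pooled signal. Circles, squares and triangles are replicates 1, 2 and 3, open symbols at the right are peaks not found, and the distance to the TSS separates the 2 peaks of PNUTS. The peaks of shg, PNUTS (549 bp), l(3)mbn and corto are missing from replicate 3.

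As a class, the weak coding peaks had low signal. Their quartiles were 30.3, 33.5 and 39.0, against 31.9, 37.7 and 49.4 for the 7467 weak peaks in introns over 500 bp from any TSS, and 33.7, 42.6 and 59.1 for the 5327 weak peaks within 500 bp of a TSS. Their range was 27.9 to 87.4, below the lowest optimal peak at 92.7, which follows from how they were chosen. Of the 1977, 304 (15.4%) reached the median of the pooled list, 42.4. The median −log10 q-value of the weak coding peaks, as deposited, was 0.155, and 13 had a value of 2 or more. By that value, few of them stood clearly above background. Just inside the distance limit were 152 weak coding peaks between 501 and 600 bp from a TSS, with a median signal of 33.5. Just outside it were 146 weak coding summits between 400 and 499 bp, with a median signal of 33.4.

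Distal coding sequence also held 9 optimal peaks, with signals from 94.4 to 683. The strongest was in the last coding exon of otp, the homeobox gene orthopedia (2R, 20884442 to 20884762), with ranks of 113, 96 and 193. The others lay in Pde1c, klar, bif, CG10357, scrib, mtd, CG33181 and Obsc. The weakest, in the giant muscle kinase gene Obsc (signal 94.4), ranked 10049 and 1920 in replicates 1 and 3 and was not found in replicate 2.

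Distal coding summits were rare among strong peaks of every replicate and common among weak ones. In the first 5000 peaks of each list, 0.42, 0.22 and 1.08% of summits lay in distal coding sequence in replicates 1, 2 and 3. At ranks 10001 to 15000 the shares were 13.1, 7.26 and 16.1%. In the last bin they were 18.8, 15.9 and 16.6%, all above 13.9%, the share of the 6 chromosome arms that is distal coding sequence. Over whole lists the share was 10.9 ± 2.19% (SD, n = 3 replicates), against 0.283 ± 0.153% among the 4000 strongest peaks. The difference had the same direction in all 3 replicates, and the exact two-sided sign-flip permutation test gave p = 0.25, the smallest that 3 pairs allow. In the pooled list the share was 0.22% of the first 5000 peaks and 16.1% of the peaks ranked 20001 to 23689.

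**Figure D2:**
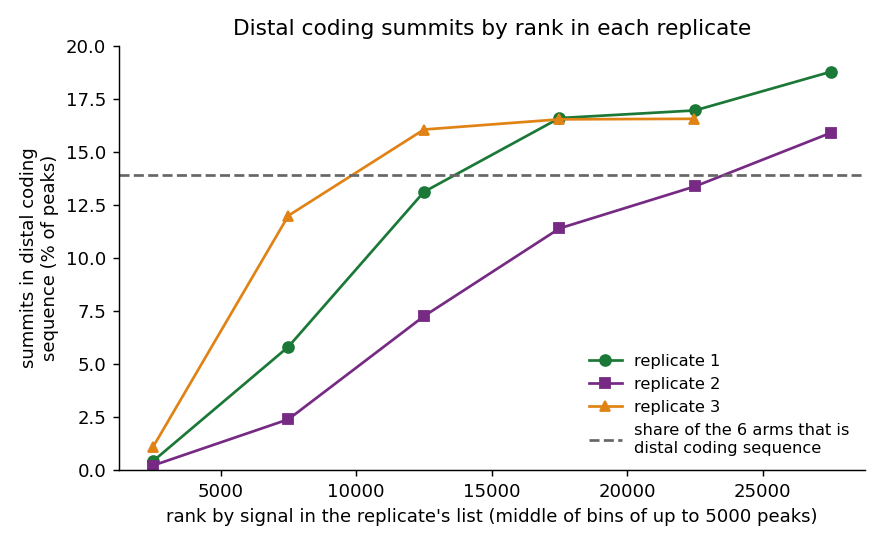
Share of peaks with a summit in distal coding sequence (y axis, %) against rank by signal in each replicate's list (x axis, bins of up to 5000 peaks). The dashed line is the share of the 6 arms that is distal coding sequence, 13.9%, and each replicate starts near 0 and ends above the line.

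Support in the replicate lists was counted by whether the pooled summit lay inside a peak of the list. All 3 lists held 213 of the 1977 weak coding peaks (10.8%, interval 9.48 to 12.2%), 2 lists held 856 (43.3%), 1 list held 836 (42.3%) and no list held 72 (3.64%). Among weak pooled peaks outside distal coding sequence, 25.0% were in all 3 lists. Since the reads of every replicate entered the pooled list, being found in a replicate is not independent of being a pooled peak. By replicate, 64.2, 48.3 and 48.7% of the weak coding peaks were found in lists 1, 2 and 3 (53.7 ± 9.10%, SD, n = 3). These lists covered 7.43, 5.69 and 5.91% of distal coding bases, and 0.368% of those bases were covered by all 3, against 1.77% of distal intronic bases. The weak coding peaks found in 1 list only were 366 in replicate 1, 204 in replicate 2 and 266 in replicate 3. Those found in exactly 2 lists were 373 in replicates 1 and 2, 318 in 1 and 3, and 165 in 2 and 3.

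Weak coding peaks were in all 3 lists less often than weak intronic peaks, of which 23.7% were. The difference was −12.9 points (95% interval −14.5 to −11.1, odds ratio 0.390, Fisher's exact test, two-sided, adjusted p = 5.77e-40 over the 2 comparisons made). The corresponding share of weak promoter peaks was 28.9%, a difference of −18.1 points (−19.9 to −16.2, odds ratio 0.298, same exact test, adjusted p = 9.81e-65). These p-values treat peaks as independent. Across replicates, the share found differed between coding and intronic peaks by −6.69, −19.2 and −1.61 points, with a mean of −9.17 ± 9.05 points (SD, n = 3, exact sign-flip permutation p = 0.25, the smallest possible). Against promoter peaks the differences were −13.7, −29.2 and 2.09 points, so replicate 3 went the other way (mean −13.6 ± 15.6, exact p = 0.5). With 3 replicates, neither mean could reach a p of 0.05.

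**Figure D3:**
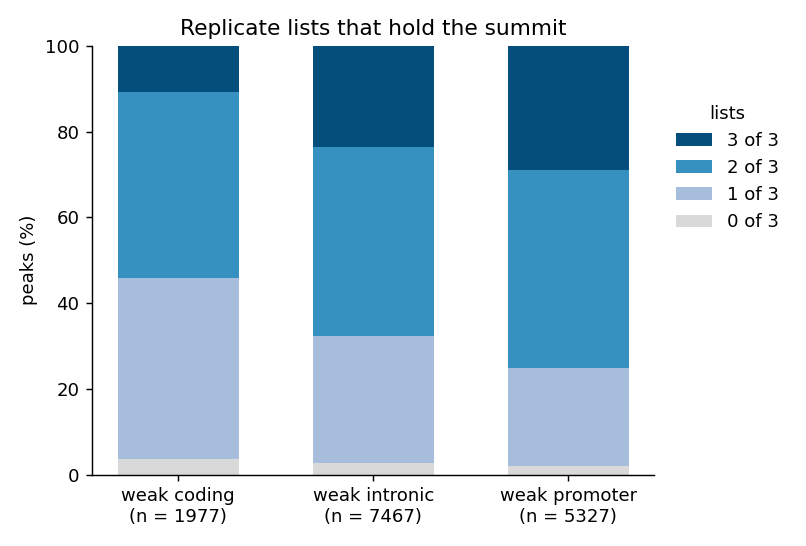
Share of weak peaks (y axis, %) whose summit lay in 3, 2, 1 or 0 of the replicate lists, for weak coding, weak intronic and weak promoter peaks. All 3 lists held 10.8% of the coding, 23.7% of the intronic and 28.9% of the promoter peaks.

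Support was higher at higher pooled signal, and the classes differed less at like signal. Among the weak coding peaks, ordered by signal and cut into 4 equal groups, 1.42, 1.62, 7.29 and 32.7% were found in all 3 lists, low to high. When the other classes were weighted to the spread of the weak coding peaks over 10 signal classes, 10.8% of weak coding peaks were in all 3 lists against 12.2% of weak intronic peaks (−1.47 points, Mantel-Haenszel chi-square test, odds ratio 0.824, p = 0.0357). The weighted share of weak promoter peaks was 11.6%, a difference of −0.825 points that did not pass the same chi-square test (odds ratio 0.903, p = 0.298). Both chi-square tests treat peaks as independent, which they are not. This weighting was added after the data were seen. Within the top class the signal of the classes still differed, and the tests take no account of it. There, 51.0% of the coding, 58.7% of the intronic and 55.2% of the promoter peaks were in all 3 lists, at median signals of 50.3, 59.1 and 62.0.

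**Figure D4:**
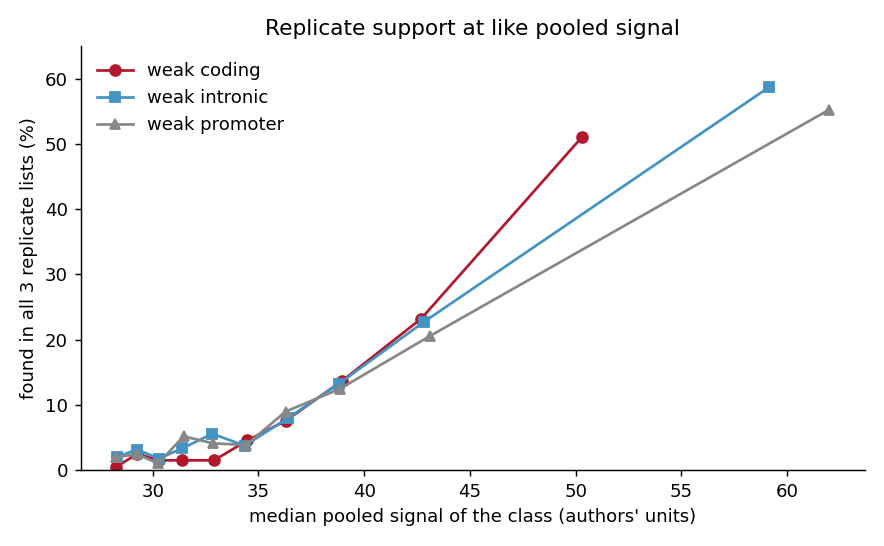
Share of weak coding, weak intronic and weak promoter peaks found in all 3 replicate lists (y axis, %) against the median pooled signal (x axis, authors' units) of each of 10 signal classes, each with as many weak coding peaks. The lines run close together up to the class near 43, and the top class spans a wide range of signal, with medians of 50.3, 59.1 and 62.0.

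The replicates' own lists were also compared without the pooled list. Outside the optimal peaks, replicates 1, 2 and 3 had 3573, 2518 and 3087 peaks with summits in distal coding sequence, in 2847, 2088 and 2473 genes. A peak of one replicate was found in another for 20.1% of the coding peaks on average (14.9 to 28.5% over the 6 ordered pairs), against 34.4% of the intronic peaks (25.6 to 43.5%). The coding value was the lower in each of the 6 ordered pairs, which take each pair of replicates in both directions. Both values were above the 5.69 to 7.43% of distal coding bases and 6.53 to 8.86% of intronic bases that the lists covered. The coding and intronic peaks were not matched for signal or rank here, and distal coding summits were commoner among the weak peaks of each list.

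The weak coding peaks were denser in coding sequence near start sites and in first coding exons. Per Mb of distal coding sequence there were 106 weak coding peaks, against 141 weak intronic peaks per Mb of distal intron. Between 500 and 1000 bp from a TSS the density was 151 per Mb (668 peaks). It was 107 per Mb between 1000 and 2000 bp, 90.4 between 2000 and 4000 bp, 87.5 between 4000 and 8000 bp, and 59.2 beyond 8000 bp (102 peaks). The nearest bin held 33.8% of the weak coding peaks and 23.7% of distal coding bases. In the replicates' own lists it held 32.6, 35.5 and 24.7%, so replicate 3 was close to the share of bases. The median distance was 1479 bp for the weak coding peaks, and 1485, 1344 and 1915 bp for the replicates' own peaks, against 1886 bp for distal coding bases. The share found in all 3 lists was between 10.4 and 11.2% in the first 4 distance bins and 12.7% in the farthest.

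Exon position was read in the gene's coding sequence, taken as the union of its transcripts. First coding exons held 284 weak coding peaks (14.4%, interval 12.9 to 16.0%) but 8.72% of distal coding bases, and the replicates' own peaks gave 12.01 ± 1.24% (SD, n = 3). Internal coding exons held 963 (48.7%, own lists 52.1 ± 2.04%) against 59.0% of the bases. Last coding exons held 543 (27.5%, own lists 27.0 ± 0.955%) against 24.2%, and genes with 1 coding exon held 187 (9.46%, own lists 8.82 ± 0.491%) against 8.10%. The 4 shares of the own lists each lay beyond 1 SD of the share of bases, in the same direction as the pooled shares. First coding exons tend to lie nearer to start sites, and the part of distance in these shares was not tested. Along the coding sequence the median position was 53.6% of the way from the start codon, against 55.8% for distal coding bases. The exon that held the summit had a median length of 689 bp, against 821 bp for distal coding bases. Every weak coding peak was 420 bp wide with its summit at the centre, and the end of the coding exon was a median of 172 bp from the summit. Most peaks therefore reached beyond their coding exon. Of the summits, 367 (18.6%) lay within 50 bp of the end of a coding exon. In 1414 cases (71.5%) the exon was at least as long as the peak, close to the 72.0% of distal coding bases in such exons.

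**Figure D5:**
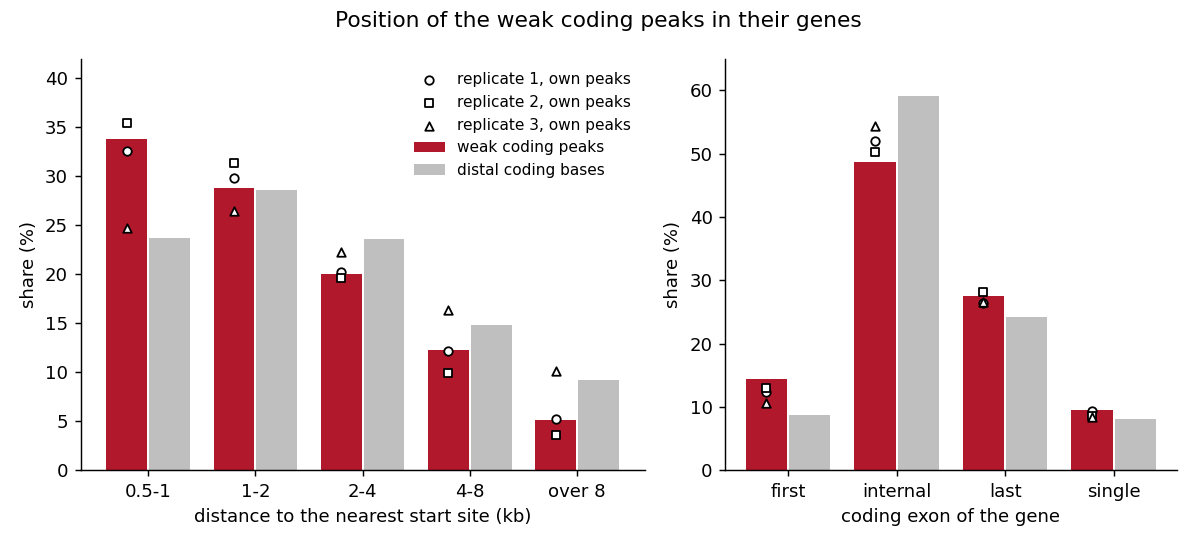
Share (y axes, %) of weak coding peaks (red bars) and of distal coding bases (grey bars) by distance to the nearest TSS in kb (left) and by coding exon (right), with circles, squares and triangles for the own weak coding peaks of replicates 1, 2 and 3. The nearest bin holds 33.8% of the weak coding peaks and 23.7% of the bases, and first coding exons hold 14.4% and 8.72%.

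By chromosome, X held 269 weak coding peaks (13.6%, interval 12.2 to 15.2%) and 17.9% of distal coding bases. The replicates' own lists gave 15.8, 17.3 and 11.5% for X, all below that share. The density was 80.9 per Mb on X, against 107, 120, 109 and 112 per Mb on 2L, 2R, 3L and 3R, and 98.0 per Mb on chromosome 4, which held 25 peaks. The density of weak intronic peaks was 128 per Mb of intron on X, between 135 and 157 on the 4 large autosomal arms, and 71.3 on chromosome 4. The embryos were of both sexes, and the copy number of X was not measured here.

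The 1977 weak coding peaks lay in 1705 genes, 13.8% of the 12397 genes with distal coding sequence. A single peak was present in 1485 genes, 2 peaks in 183, 3 in 27, 4 in 7, 5 in 1 and 6 in 2. Some peaks shared bases, with 140 overlapping another weak coding peak in 70 pairs of neighbours. The 10 genes with most peaks had between 15 and 32 coding exons. The gene lola, a BTB zinc-finger transcription factor with many isoforms, had 6 peaks over 14600 bp of distal coding sequence, with signals between 28.8 and 55.2. Its strongest (2R, 10490512 to 10490931) ranked 19156, 16456 and 4490 and was the 1 found in all 3 replicates.

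Mhc, the muscle myosin heavy chain, had 6 peaks over 7076 bp, in coding exons 2, 12, 15, 20, 26 and 27 of 30. The peak of exon 15 had the highest signal, 44.8 (2L, 16777186 to 16777605), with ranks of 17870, 24089 and 6937, and the other 5 were in 1 or 2 lists each. Tm1, a tropomyosin gene, had 5 peaks over 4174 bp, with signals from 29.3 to 49.7 and 1 found in all 3 lists. The polarity kinase gene par-1 had 4, the strongest at 57.2, and px had 4, the strongest at 49.9. The nuclear-anchoring nesprin gene Msp300 had 4 over 63805 bp. The splicing factor gene Rbfox1, Alh, osa (a subunit of the Brahma chromatin remodelling complex) and ATP8B (a phospholipid flippase) had 4 each, none of them found in all 3 lists. In Rbfox1, 2 neighbouring peaks fell in the same replicate peaks, so their support is not separate.

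Optimal peaks at start sites were counted in the genes with a weak coding peak. Of the 1705 genes, 592 (34.7%, interval 32.5 to 37.0%) had an optimal summit within 500 bp of a TSS, against 24.2% of all 12397 genes. Genes with a weak coding peak also had more distal coding sequence (median 1734 bp, against 1008 bp in all genes). With genes without one weighted to the same 10 length classes, the share was 34.7% against 25.7%, and it was higher in 10 of 10 classes. The gap was uneven, from 34.7 against 34.1% in class 9 to 34.3 against 17.6% in class 1, the shortest. No test was made, because genes are not independent samples. The optimal summit nearest to a weak coding peak was at a median of 5850 bp, and 145 weak coding peaks (7.33%) had one within 1000 bp, the nearest at 553 bp.

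In 14 lists of genes by tissue or function, 51 distinct genes held a weak coding peak, and most counts were small. They are to be read against the 13.8% of all genes that held one and against the overall rate per base, since genes with more coding sequence have more room for a peak. That rate takes no account of distance to a start site, and the density was 151 per Mb between 500 and 1000 bp and 59.2 beyond 8000 bp. The part of distance in the list counts was not tested. Of 18 caudal visceral mesoderm genes, 6 held 1 each, where the overall rate per base would give 7.03 peaks. LanA, a laminin subunit of the basement membrane on which these cells migrate, had a peak of 41.95 in coding exon 5 of 15 (3L, 6214435 to 6214854), with ranks of 24804, 22835 and 7406. The gene pyr encodes a fibroblast growth factor that guides this migration. Its last coding exon held a peak of 41.9 (2R, 11724764 to 11725183), with ranks of 14343, 22611 and 21040. Peaks in zfh1 (37.3), wb (36.9) and mew (35.7) were in 2 lists each, and that in croc (28.2), which encodes a forkhead factor, was in 1. HLH54F itself held none.

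Sarcomere and muscle attachment genes held the most, 22 peaks in 9 of 20 genes, where the overall rate would give 20.3. That near match holds for the list as a whole, and the peaks were unevenly spread over its genes. Msp300 and sls had 63805 and 55457 bp of the list's 190.9 kb of distal coding sequence, with 4 peaks and 1 peak. The other genes together held most of the 22 peaks in the smaller part of that sequence. Most of those were in Mhc (6 over 7076 bp) and Tm1 (5 over 4174 bp). Zasp52 held 1 over 9055 bp, and the genes outside the 9 held none. Of the 22 peaks, 7 were found in all 3 lists. They were in Mlc2 (myosin light chain, signal 48.8, ranks 8349, 12356 and 17338), Tm1, Tm2, up (troponin T, 51.4, ranks 7971, 15283 and 13246), Msp300, Mhc and Zasp52. The actin gene Act57B had a peak of 47.8 missing from replicate 2, and the titin gene sls 1 of 37.3 that no replicate list held. Cytoskeletal linkers with long coding exons held 7 peaks in 4 of 10 genes (kst, beta-Spec, alpha-Spec and Khc), where the overall rate would give 15.3. Cadherins and large cell-surface proteins held 2 in 2 of 10 genes (shg and Ser) against 9.59 at that rate, and basement membrane genes held 3 in 3 of 11 (LanA, wb and Col4a1) against 8.03.

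The Hox, bHLH and gut regulator lists had more than the overall rate gives. Hox genes held 7 peaks in 4 of 8 genes, where that rate would give 1.35. The gene abd-A, which specifies abdominal segments, held 3, of which 1 (signal 36.9, 3R, 16827318 to 16827737) was in all 3 lists with ranks of 17399, 21550 and 15858. The gene pb held 2, the stronger at 48.6 in its last coding exon, with ranks of 11234, 12419 and 15931. Abd-B and Antp held 1 each, at 30.4 and 28.4. The bHLH genes held 7 peaks in 6 of 24, against 3.43 at the overall rate. They included 2 overlapping peaks in twi, the mesoderm determinant, the stronger at 38.1 with ranks of 25640, 14654 and 7588. Both fell in the same peaks of replicates 1 and 2. The others were in sim, Fer1, tai, tgo and da, with signals between 29.5 and 35.6 and support in 1 or 2 lists. Gut and hindgut regulators held 4 in 4 of 12 genes (cad, fkh, raw and bap), against 2.07 at the overall rate. Of these, the peak in cad was found in all 3 lists with a signal of 33.4.

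Abundant housekeeping transcripts held 7 peaks in 6 of 12 genes, where the overall rate would give 1.61. Act5C, the cytoplasmic actin, had a peak of 56.3 (X, 5902651 to 5903070) with ranks of 9944, 11528 and 15249. The chaperone gene Hsc70-4 had 2 overlapping peaks, of which the stronger (45.7) was in all 3 lists. Both fell in the same peaks of replicates 1 and 2, so they are not separate support. The peaks of eEF1alpha1 (45.2), eEF2, Rack1 and betaTub56D were in 1 list each. Among the remaining lists, chromatin and Polycomb genes held 7 peaks in 4 of 12 genes (osa, E(z), Sce and Su(z)2), against 5.66 at the overall rate. Segmentation factors held 2 in 2 of 14 (Kr and slp2) against 1.84. Neuroblast and neuronal factors held 2 in 2 of 11 (pros and elav) against 2.66. Yolk, glue and eggshell genes held 1, in Cp18, against 0.497. The 11 heat shock genes held none in 11.5 kb, where the overall rate would give 1.22. No test was made over any list.

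Sequence at the weak coding summits was richer in GC than coding sequence at large. Within 100 bp of the summit the median was 56.2% GC (quartiles 51.2 and 60.7%), against 52.7% over 92566 windows of the same 201 bp on a regular grid through distal coding sequence, and 40.3% at weak intronic summits. The 213 found in all 3 replicates had a median of 58.2%. The own coding peaks of the replicates gave 55.2, 54.7 and 55.2% (55.1 ± 0.287, SD, n = 3). All 3 were above the coding windows by more than their spread.

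The 13 motifs searched on both strands were the 10 classes of CANNTG, the repeat GAGAG, the sequence CAGGTAG and CAGCAGCAG, a run of 3 CAG. A CANNTG of any class was in 67.4% of weak coding summit windows and 67.6% of coding windows, nearly the same. CAGCTG was in 17.8% (interval 16.2 to 19.6%) against 14.4% of coding windows, and in 17.01 ± 0.405% (SD, n = 3) of the replicates' own coding summits. With coding windows weighted to the GC content of the weak coding summits, a step added after the data were seen, its share was 17.3%, inside that interval. CACCTG was in 17.2% against 15.6%, or 17.8% with that weighting, so the sign of its difference turned. CACATG was in 10.7% (interval 9.43 to 12.2%) against 9.16%, and 9.34% with the weighting, below that interval, while the replicates' own coding summits gave 9.59 ± 0.224% (SD, n = 3). CAAATG was in 9.71% against 13.01%, and 10.9% with the weighting. GAGAG was in 22.3% against 23.1%, and CAGGTAG in 1.67% against 1.90%.

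A run of 3 CAG, which on the coding strand encodes glutamine, alanine or serine depending on the frame, was in 172 weak coding windows (8.70%, interval 7.54 to 10.02%) against 5.06% of coding windows. The replicates' own coding summits gave 7.12 ± 0.575% (SD, n = 3), and weak intronic summits 1.45%. With the GC weighting, coding windows reached 7.40%, outside the interval of the weak coding summits but above the mean of the replicates' own. The strongest with such a run were in InR, corto, tral, tow and CG42327, with signals between 61.8 and 69.8, and corto was the only 1 of these 5 missing from a replicate. The InR sequence printed above carries its run before the first E-box.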

How the data were processed

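Peak lists in dm6 were used as deposited: 1 relaxed list for each of the 3 biological replicates, the relaxed pooled list and the optimal list. Per the records the authors deposited beside the lists, replicate lists were called on 1 alignment each and the pooled list on all 3, against 1 control file, and the relaxed lists were input to the irreproducible discovery rate procedure. Neither the aligner nor the peak caller is named in the sources used here. The signal and the −log10 q-value of each peak are the values the authors deposited, and neither entered a test except as rank or class. Lists in dm3 were not used here.

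Summits (start plus the deposited offset) were placed on Ensembl release 115 (BDGP6.54), with start sites of transposable elements left out. A peak was found in a list when its summit lay inside a peak of it. Coding windows of 201 bp were centred on every 201st base of distal coding sequence. Own peaks of a replicate overlap no optimal peak. Shares have 95% Wilson intervals. Named peaks were the 15 strongest found in all 3 lists, the 5 strongest outside these, the 10 genes with most, and each gene of 14 textbook lists that held one. Of the listed symbols, 2 cadherin-list names had no match and were not analysed. The peaks and lists were chosen with earlier results of these data known. Matching code was tested on simulated intervals. Python 3.11.15, numpy 2.4.6, pandas 2.3.3, scipy 1.17.1 and statsmodels 0.14.6 were used.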

Additional observations from a re-analysis of the deposited data

How the results depend on the processing

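The number of weak coding peaks, 1977, fell to 1309 with a limit of 1000 bp from a TSS and to 304 with a pooled signal at or above the pooled median. The share found in all 3 lists, 10.8%, became 16.1% when an overlap of 1 bp counted and 7.64% with lists of equal length. With 1 replicate left out, the share found in both others lay between 19.1% and 29.6%, a looser criterion by construction. The difference from weak intronic peaks kept its direction under every alternative tried, between −18.9 points without replicate 3 and −1.47 points with the signal weighting (chi-square test, p = 0.0357). It passed the threshold in each only with single peaks as the units, and over the 3 replicates the exact p was 0.25. The difference from weak promoter peaks kept its direction, but at −0.825 points with the signal weighting it no longer passed (chi-square test, p = 0.298). The share of replicate-list peaks in distal coding sequence was 10.9% over whole lists and 0.283% among the 4000 strongest. Small motif differences changed sign under some settings. With the GC weighting, added later, this held for CACCTG (−0.631 points), for CAATTG (0.065 points), for CACGTG (−0.118 points), for CAGATG (−0.068 points) and for CATATG (0.360 points). With windows of 50 bp each side it held for GAGAG (0.211 points) and for CANNTG of any class (0.353 points). With 200 bp each side it held for CAGATG (−0.063 points), for CAGGTAG (0.030 points) and for CANNTG of any class (0.462 points). No paired analysis was possible because the labels give 1 group, so no samples of different groups share a number. The sign-flip tests paired classes of peaks, or whole lists with their strongest peaks, within each replicate. Unknown depth limits what absence from a list shows.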
